A study of Bos taurus with 32 samples.

Results

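The contractile apparatus of smooth muscle was followed across the bovine endometrium through 10 genes that code for its main proteins, ACTA2, ACTG2, MYH11, TAGLN, CNN1, DES, MYL9, TPM1, TPM2 and CALD1. The genes were chosen by name and not by their values, though with earlier results of these data known. A gene probe was taken as theirs where its gene name or the symbol in its description was that of the gene. Of the 10 genes, 8 had a probe on the array, with 1 probe each among 15208 gene probes, and MYH11 and TAGLN had none. The CNN1 probe carried only a locus number as its gene name and was found through its description.

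The 32 arrays held RNA of endometrium taken 15 days into the estrous cycle from non-lactating Japanese Black cows. Repeat breeder (RB) cows, which had not conceived after at least 3 inseminations, were compared with non-RB cows, which had conceived within 3 inseminations, had their pregnancy ended with prostaglandin F2α and then cycled normally. There were 4 cows in each group, and each gave caruncular (CAR) and intercaruncular (ICAR) tissue from the middle of the horn on the side of the corpus luteum (ipsilateral) and of the other horn (contralateral), so that each of the 8 groups held 4 arrays. Both kinds of piece were separated by dissection and not by cell sorting, so a piece could hold stroma, glands, vessels and any muscle left beneath.

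Smooth muscle shortens when myosin filaments pull on thin filaments of smooth muscle actin. The alpha and gamma actins ACTA2 and ACTG2 form the thin filament, tropomyosins (TPM1, TPM2) lie along it, and calponin (CNN1) and caldesmon (CALD1) restrain its contact with myosin. MYL9 is the regulatory light chain whose phosphorylation switches the smooth muscle myosin MYH11 on, TAGLN is an actin-binding protein of differentiated smooth muscle, and desmin (DES) is the intermediate filament that ties contractile units together. In the uterus these genes are best known from the myometrium. Vessel walls, pericytes and myofibroblasts also use several of them, most of all ACTA2, and desmin is a filament of striated muscle and of endometrial stromal cells too. In pieces of tissue such as these, fewer cells of a type and less RNA per cell cannot be told apart.

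The probes of the 8 genes were 60 bases long and each sequence stood on the array once. Actins and tropomyosins are families of near-identical proteins, so the letters decide how far a probe can separate its gene from its relatives, and for this reason 3 of them are shown as the files give them, for ACTG2 the first 30 bases only.
ACTA2: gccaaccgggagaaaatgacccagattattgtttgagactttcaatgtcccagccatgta
ACTG2: ggggccctccattgtccacagaaagtgctt
TPM2: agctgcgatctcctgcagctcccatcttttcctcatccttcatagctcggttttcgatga
Over all 8 probes, the longest stretch shared on the same strand with any other probe of the array was between 11 and 16 bases. How well other actin or tropomyosin transcripts bind to these probes was not tested. No transcript sequence was used here, so the strand of the probes relative to their transcripts was not checked. For TPM2 it is in doubt, as its letters look like those of the strand opposite to the coding strand. A probe of the opposite strand would not report TPM2 mRNA. The values below, and the counts of contractile genes, thus include this probe only as the probe named TPM2.

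Signals are given as log2 of the background-corrected intensity relative to the 75th percentile of the same array, so that 0 is the level of that percentile and a difference of 1 is a doubling. They set one array against another for the same probe and say nothing of one gene against another. The probes of ACTA2, ACTG2, CNN1, DES, TPM1, TPM2 and CALD1 were well above background on all 32 arrays. The MYL9 probe was well above background on 5 arrays, 3 of CAR and 2 of ICAR. No spot of the 8 probes was saturated or carried an outlier flag. The probes of all 9 epithelial genes measured and 8 of the 9 stromal probes were well above background on all 32 arrays. So were 10538 of the 15208 gene probes, and this detection does not test the tissue label.

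Both arrays of slide 1 stood apart from the rest. They are CAR contralateral of non-RB replicate 2, with 351 spots flagged as outliers, and ICAR contralateral of non-RB replicate 1, with 100 flagged spots and the lowest 75th percentile of the series (1165 intensity units, against up to 4857), while no other array had more than 29. The first gave the highest signal of the 32 arrays for CNN1 (4.13), CALD1 (-0.72), TPM2 (-3.84) and MYL9 (-5.91). The second gave the lowest for DES (-2.93) and ACTG2 (-0.48). The comparisons between tissues, between horns and over the whole uterus use both arrays, and their values without slide 1 are given beside them.

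The contractile genes varied widely from piece to piece. Over the 32 arrays the DES signal ran from -2.93 to 0.24, a 9.0-fold range. ACTA2 ran from -2.45 to 0.22 (6.37-fold), CALD1 from -3.21 to -0.72 (5.63-fold) and CNN1 from 1.69 to 4.13 (5.42-fold). The narrower ranges were those of TPM2 (3.77-fold), ACTG2 (3.63-fold) and TPM1 (3.29-fold). In the groups of 4 arrays the values of RB and non-RB cows overlapped for each of the 8 genes in each compartment, as did the means of the cows over the whole uterus. Groups that did not overlap were found for 1.97% of all probes in CAR ipsilateral, 2.23% in ICAR ipsilateral, 1.37% in CAR contralateral, 1.48% in ICAR contralateral and 1.19% over the whole uterus.

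**Figure D1:**
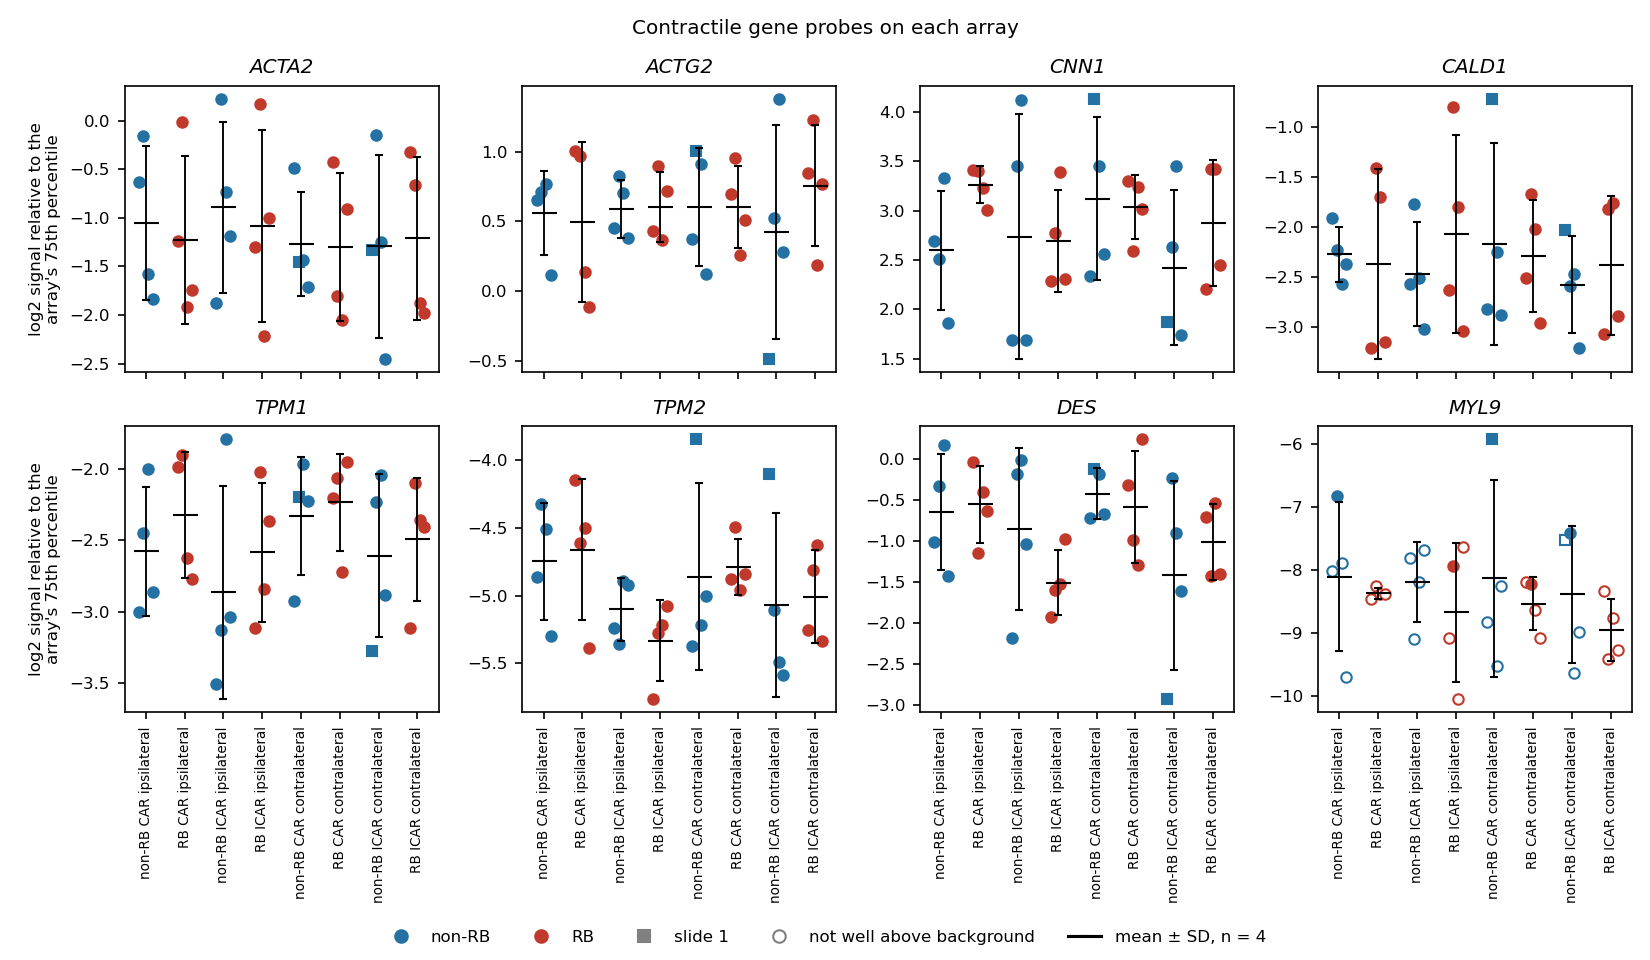
Log2 signal over its 75th percentile (vertical axis) of the 8 contractile genes in the 8 groups (horizontal axis), with 1 point per array and the mean ± SD of the 4 arrays; squares are the arrays of slide 1 and open symbols are spots not well above background. Points of RB and non-RB cows overlap in every compartment, and MYL9 is open on 27 of the 32 arrays.

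MYL9, the light chain that switches myosin on, could hardly be followed. Its 5 signals well above background were -6.82 in CAR ipsilateral, -5.91 in CAR contralateral and -7.41 in ICAR contralateral of non-RB replicate 2, and -8.22 in CAR contralateral and -7.93 in ICAR ipsilateral of RB replicate 2. All 5 arrays thus came from the animals numbered 2, although other arrays gave a higher signal that was not well above its own background. Only in CAR contralateral did the probe pass the filter, with 1 array of 4 well above background in each group, and there the RB minus non-RB difference was -0.40 on the log2 scale (95% interval -1.95 to 1.15, limma adjusted p = 0.9998, exact permutation p = 0.8286).

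CAR is known as the gland-free tissue that later forms placentomes, and ICAR as the tissue that holds the uterine glands. CAR was compared with ICAR on all arrays, with the cow group and the horn in the model, to gauge the muscle content of both kinds of piece. None of the 7 contractile genes tested differed between CAR and ICAR at an adjusted p under 0.05 by limma, where 1.35% of the 12919 probes tested did (0.387% higher and 0.96% lower in CAR). At an unadjusted p under 0.05 there were 2 of the 7, DES and the TPM2 probe of doubtful strand, against 16.2% of all probes. Both had a higher signal in CAR. This fit takes the 32 arrays as separate, although each cow gave 4 of them. With the cow (group and number) as a block DES passed (limma adjusted p = 0.0252), as did 1086 of the 12919 probes tested. In a limma fit to 1 mean difference per cow no contractile gene passed (adjusted p = 0.102 for DES), and neither did any other probe. The median CAR minus ICAR difference of the 7 genes was 0.27 on the log2 scale, and that of all probes tested was 0.02. The actins lay near 0 and desmin lay farthest from it.

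DES, the desmin filament, had the largest difference. In CAR its signal was -1.43 at the lowest, -0.52 at the median and 0.24 at the highest of 16 arrays, and in ICAR it was -2.93, -1.22 and -0.02. CAR was thus the higher tissue at each of these points, although the ranges overlapped, and 3 of 16 ICAR arrays lay above the CAR median. The difference was 0.64 on the log2 scale (1.56-fold, 95% interval 0.17 to 1.12), with a limma p of 0.00962 over 32 arrays and an adjusted p of 0.136, against 0.0252 with the cow as a block and 0.102 over the mean differences of the cows. Taking arrays of the same group and number as the same cow, which the labels do not state, CAR was higher in 7 of 8 cows (exact sign-flip permutation p = 0.0156, two-sided) and in 13 of 16 horns. The sign was the same in all 8 cows for none of the 7 genes, against 2.7% of all probes. The DES differences of the cows ran from -0.02 in non-RB cow 2 to 1.69 in non-RB cow 1. Non-RB cow 1 includes the dim array of slide 1. Without both arrays of slide 1 the difference was 0.50 (limma p = 0.0252, adjusted p = 0.229), and with both horn pairs that hold one of them left out CAR was again higher in 7 of 8 cows (mean difference 0.56, exact sign-flip permutation p = 0.0156). Within the scan sessions other than the first, which held slide 1 alone, the CAR minus ICAR differences were 0.71, 0.46 and 0.47.

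The probe named for TPM2, the beta tropomyosin, was -5.38 at the lowest, -4.85 at the median and -3.84 at the highest in CAR, and -5.76, -5.23 and -4.10 in ICAR. Both of the highest values were from slide 1. The difference was 0.36 on the log2 scale (95% interval 0.05 to 0.68, limma adjusted p = 0.221), with CAR higher in 7 of 8 cows and an exact sign-flip permutation p of 0.0938. Without slide 1 the difference was 0.37 (limma adjusted p = 0.133), and CAR was higher in 8 of 8 cows once both horn pairs holding such an array were left out (mean difference 0.45, exact sign-flip permutation p = 0.00781, the smallest that 8 cows allow).

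CNN1, the calponin that restrains the actin-activated myosin, had a mean of 3.003 ± 0.551 (SD, n = 16) in CAR and 2.68 ± 0.770 in ICAR, a difference of 0.32 (95% interval -0.15 to 0.80, limma adjusted p = 0.555). CAR was higher in 5 of 8 cows, and without slide 1 the difference fell to 0.19. TPM1, the alpha tropomyosin, differed by 0.27 (95% interval -0.06 to 0.60, limma adjusted p = 0.442) and was higher in CAR in 6 of 8 cows, with 0.22 without slide 1. Both intervals reach from below 0 to less than a doubling.

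The actins and caldesmon were close to level between the tissues. CALD1 differed by 0.10 (95% interval -0.38 to 0.58), with CAR higher in 3 of 8 cows, and by 0.02 without slide 1. ACTG2, the enteric and visceral gamma actin that is abundant in uterine muscle, differed by -0.03, and its interval of -0.33 to 0.28 was the tightest of the 7 genes. ACTA2, the alpha actin of vessel walls and smooth muscle, differed by -0.09 (95% interval -0.63 to 0.45), as it did without slide 1. The smallest limma adjusted p of these 3 genes was 0.913. For ACTG2 the interval is a CAR to ICAR ratio between 0.797 and 1.21. Without slide 1 the ACTG2 difference was -0.13 (95% interval -0.40 to 0.15, a ratio between 0.758 and 1.11), with CAR higher in 2 of 8 cows once its horn pairs were left out.

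**Figure D2:**
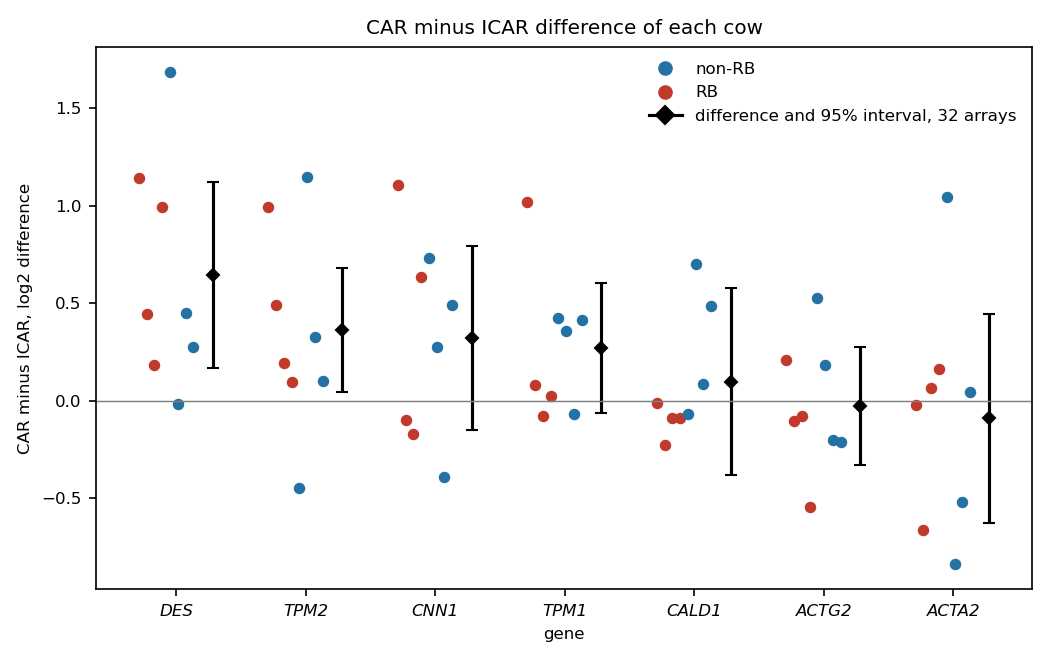
CAR minus ICAR log2 difference (vertical axis) of the 7 contractile genes tested (horizontal axis), with 1 point per cow averaged over its horns and, in black, the difference over 32 arrays with its 95% interval. DES and TPM2 have intervals above 0, and each of the 7 genes has cows on both sides of 0, with 1 cow below 0 for DES and for TPM2 and 5 for CALD1 and for ACTG2.

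Other lists of genes placed these differences among the other tissues of a piece. The epithelial list went the other way, with all 9 of its probes lower in CAR at a median of -0.52 on the log2 scale. Of these, the gland factors SPDEF (-1.92, limma adjusted p = 0.0353) and FOXA2 (-1.69, adjusted p = 0.0361) passed the test, while neither did without slide 1 (adjusted p = 0.0574 for both) and each did in only 2 of the 8 fits with a cow left out, those without non-RB cow 2 and without RB cow 3 (adjusted p up to 0.292). MUC1, a surface mucin of the epithelium, differed by -0.70 (adjusted p = 0.105). The summed epithelial signal was 18.7 to 56.4 times the 75th percentile in CAR and 13.8 to 81.4 times in ICAR. All 9 stromal probes were higher in CAR, with a median of 0.44. Of these, 5 of 9 had an unadjusted p under 0.05, against 16.2% of all probes, but none passed the adjusted test. The summed stromal signal was 86.9 to 238 times the 75th percentile in CAR and 54.1 to 184 times in ICAR. The collagens COL1A1 (0.60) and COL1A2 (0.58) and the fibroblast receptor PDGFRA (0.48) had the largest stromal differences, with adjusted p of 0.297, 0.165 and 0.252 by limma. The part of stromal and epithelial content in the DES and TPM2 differences was not tested.

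Genes that work beside the contractile apparatus gave no call either. Among the regulators of contraction, such as kinases, phosphatase subunits and channels, 10 of 17 genes had a probe, 0 of 10 passed the adjusted test and the median difference was 0.06. Among the largest were PRKG1, the cyclic GMP-dependent kinase that relaxes smooth muscle (0.56, adjusted p = 0.188), and HSPB6, a small heat shock protein of muscle (0.32, adjusted p = 0.172), both by limma. Among thin filament and cytoskeleton partners, 18 probes of 17 of the 31 genes had a median of 0.03 with 0 passing, led by PDLIM3 (0.68), CNN2 (0.49) and MYH10 (0.42). Of the 12 muscle transcription factors only MEF2A (0.09) and MEF2C (-0.02) had a probe. All 4 probes of pericytes and vessel walls had differences above 0, with a median of 0.23 led by MCAM (0.33), KCNJ8 (0.33) and ANGPT1 (0.14), and 0 passed. Endothelial genes had a median of 0.05 over 9 probes, led by ENG (0.31), ESAM (0.22) and KDR (-0.17). Leukocyte genes had a median of -0.04 over 9 probes, led by CD2 (0.20), CD14 (0.19) and NKG7 (-0.12), and again 0 passed in both lists.

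The striated muscle list held the largest muscle differences between the tissues. Of its 20 genes 14 had a probe and 10 were tested, with a median CAR minus ICAR difference of 0.36 on the log2 scale. Of these, 5 of 10 had an unadjusted p under 0.05, against 16.2% of all probes, and 0 were called by limma. Only 6 of its 14 probes were well above background on all 32 arrays. Its summed signal was 0.472 to 1.48 times the 75th percentile in CAR and 0.354 to 1.33 times in ICAR. ACTC1, the cardiac alpha actin that other muscle cells can also express, was -5.25 at the lowest, -2.29 at the median and -0.48 at the highest in CAR, and -5.70, -4.67 and -1.60 in ICAR. It differed by 1.72 (3.30-fold, 95% interval 0.77 to 2.68, limma adjusted p = 0.0523) and by 1.61 without slide 1 (adjusted p = 0.0946), and CAR was higher in 7 of 8 cows (exact sign-flip permutation p = 0.0156). TNNT3, the troponin T of fast fibres, differed by 1.15 (adjusted p = 0.0753) with CAR higher in 8 of 8 cows (exact sign-flip permutation p = 0.00781), but by 0.91 without slide 1, with 7 of 8 cows once its horn pairs were left out. TNNT1, the troponin T of slow fibres, differed by 0.76 (limma adjusted p = 0.229). The mean signals in CAR and ICAR were -5.12 and -6.27 for TNNT3, and -6.38 and -7.14 for TNNT1. ACTC1 was on the list, but its link to DES was looked for after its values had been seen.

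ACTC1 and DES followed each other from array to array. The Pearson correlation of both probes was 0.78 over the 32 arrays, 0.78 over the 16 CAR arrays, 0.71 over the 16 ICAR arrays and 0.80 over the 30 arrays without slide 1. In RB cow 1, the ACTC1 signals were -0.48 and -1.07 in CAR against -4.90 and -3.62 in ICAR, and the DES signals were -0.04 and -0.32 against -1.93 and -0.71. In RB cow 2, ACTC1 was at -3.70 or lower and DES at -0.99 or lower in all 4 pieces. In ICAR of non-RB cow 2, a high DES signal also went with a high ACTC1 signal (ACTC1 -1.88 and -2.0, DES -0.19 and -0.23). This did not hold for each ICAR array. The one with the highest DES signal in ICAR (-0.02), from another non-RB cow, had an ACTC1 signal well below both of these. A second probe, described only as similar to desmin, correlated with the DES probe at 0.70 over 32 arrays and at 0.81 without slide 1, and its own CAR minus ICAR difference was 0.27 (95% interval -0.03 to 0.56, limma adjusted p = 0.376). The points of these correlations share 8 cows, 8 slides and the scaling of each array.

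**Figure D3:**
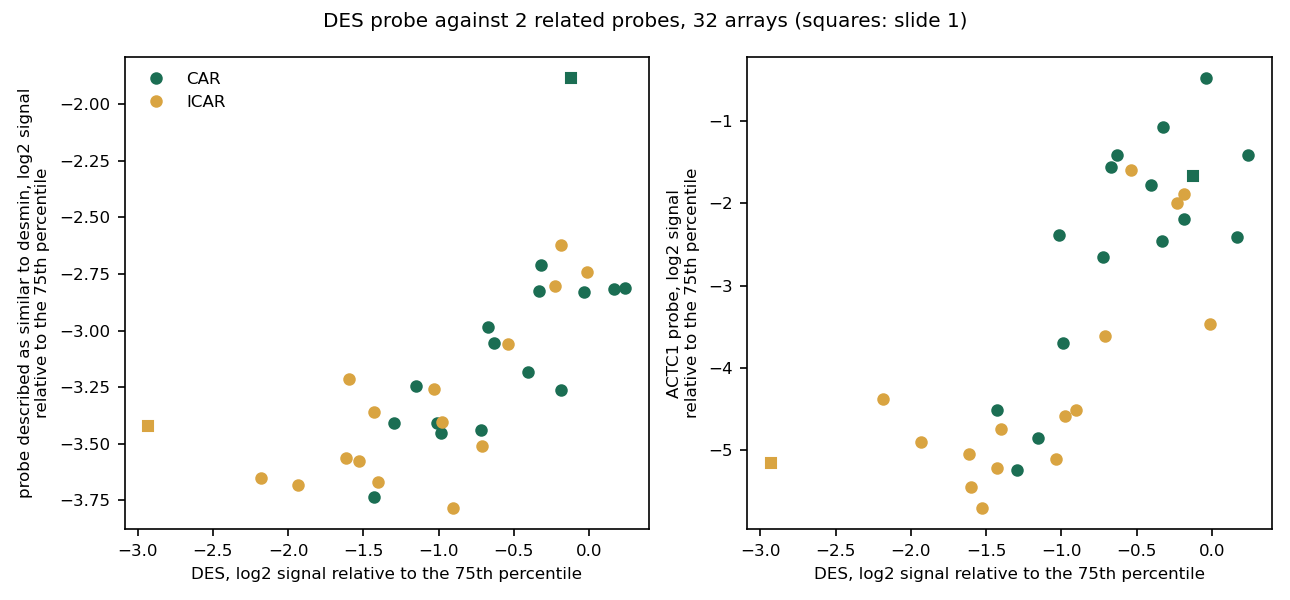
DES log2 signal over its 75th percentile (horizontal axes) against that of a probe described as similar to desmin (left) and of the ACTC1 probe (right), with 1 point per array, coloured by tissue, and squares for slide 1. Arrays with a DES signal under -1.2 all have an ACTC1 signal under -4, and the correlation is 0.78 over the 32 arrays.

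The other contractile genes moved together only in part. Of the 28 pairs of the 8 probes, 25 had a correlation above 0 over the 32 arrays, with a median of 0.25 and a range from -0.10 to 0.64. The pairs above 0.5 were CNN1 with TPM1 (0.64), MYL9 with TPM2 (0.61), CNN1 with DES (0.60), DES with TPM1 (0.57) and ACTG2 with TPM1 (0.55). Without slide 1, 2 pairs stayed above 0.5, CNN1 with TPM1 (0.62) and CNN1 with DES (0.53), and MYL9 with TPM2, most of whose MYL9 signals were not well above background, fell to 0.45. ACTA2, a gene often used as a muscle marker, was in none of these pairs. A second probe described as similar to the aortic smooth muscle actin tracked TPM1 (0.58) and ACTG2 (0.55) over the 32 arrays more closely than it tracked the ACTA2 probe (0.42), which was not tested as a difference. Its CAR minus ICAR difference was 0.07 (95% interval -0.30 to 0.45). A probe described as similar to transgelin, the protein of TAGLN, differed by 0.30 (95% interval -0.20 to 0.80).

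The means of the cows spread about as widely as single pieces of 1 cow did, except for TPM2. A mean of 4 arrays varies less than a single array, so a like spread does not mean that cows differed no more than pieces. The difference between cows was not tested. All arrays of RB cows 2 and 3 lay on slide 2, those of RB cow 4 on slide 6 and those of non-RB cow 4 on slide 7. Differences between cows thus cannot be told apart in full from those between slides. The mean of the 4 arrays of a cow ranged over 3.10-fold for ACTA2, 3.08-fold for CNN1, 2.999-fold for CALD1, 2.82-fold for DES, 2.34-fold for TPM1, 1.72-fold for ACTG2 and 1.46-fold for TPM2. The SD of these 8 means was between 0.94 and 1.38 times the SD within a cow for 6 of the genes, highest for CALD1, and 0.42 times for TPM2. Non-RB cow 3 had the highest mean of CNN1 (3.59) and TPM1 (-1.95), and non-RB cow 4 the lowest of CNN1 (1.96), ACTG2 (0.23) and TPM2 (-5.20). CALD1 did not share this order, with its highest mean in RB cow 2 (-1.43) and its lowest in RB cow 4 (-3.01). For CNN1 the SD between cow means was 0.79 in non-RB and 0.28 in RB cows, and for DES it was 0.74 and 0.27. The second desmin probe gave 0.42 and 0.06. CALD1 went the other way, with 0.43 in non-RB and 0.78 in RB cows, and so did ACTA2, with 0.58 and 0.64. The SD was larger in non-RB cows for 5 of the 7 genes, and without slide 1 for 4 of them, ACTA2, CNN1 (0.72 against 0.28), DES (0.58 against 0.27) and TPM1. The difference in spread was not tested, and it too cannot be told apart in full from the slides.

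**Figure D4:**
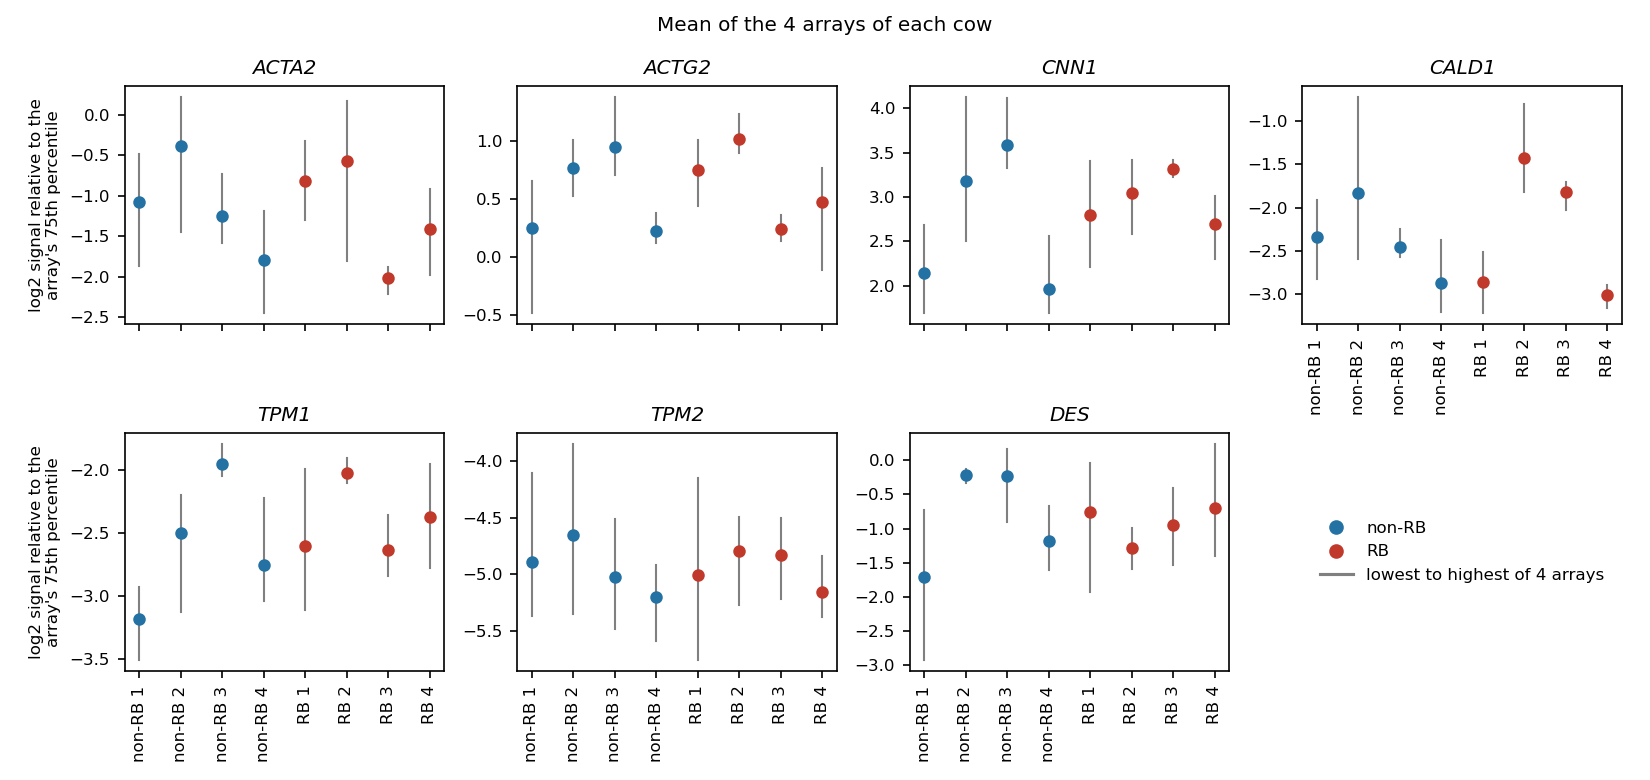
Mean log2 signal over its 75th percentile (vertical axes) of each cow (horizontal axes) for the 7 contractile genes well above background on all arrays, with a line from the lowest to the highest of its 4 arrays. Non-RB cows range from 1.96 to 3.59 in CNN1 and RB cows lie between these values.

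RB cows were compared with non-RB cows in each compartment to ask whether the pieces of the infertile cows held more or less contractile RNA. No contractile gene passed an adjusted p of 0.05 in any compartment by limma, and neither did any other probe (0.0% of 13080 probes in CAR ipsilateral, 12889 in ICAR ipsilateral, 13135 in CAR contralateral and 12980 in ICAR contralateral). At an unadjusted p under 0.05 there were 0 contractile genes in all 4 compartments, against 3.41%, 3.69%, 1.74% and 1.60% of all probes in that order. The number of cows limits the precision, since 95% intervals of single genes reached from a 0.258-fold to a 3.08-fold RB to non-RB ratio. With 4 against 4 arrays the exact permutation test cannot give a p below 0.0286. Only 2 of the 8 slides held arrays of both RB and non-RB cows, so cow group and slide can be told apart only in part. In CAR ipsilateral RB and non-RB arrays shared no slide, so there cow group and slide cannot be told apart.

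In CAR of the ipsilateral horn, where RB and non-RB arrays lay on different slides, the largest difference was that of CNN1. Its signals were 3.41, 3.40, 3.23 and 3.01 in RB cows and 2.69, 2.51, 3.33 and 1.86 in non-RB cows. RB cows lay within a narrow band at the top, while 1 of the non-RB cows reached into it. The difference was 0.67 on the log2 scale (1.59-fold, 95% interval -0.05 to 1.38, limma p = 0.0646, adjusted p = 0.9997, exact permutation p = 0.0857). The other 6 genes tested there differed by -0.18 to 0.26. CNN1 differed by -0.05 in ICAR of the same horn, by -0.09 in CAR contralateral and by 0.45 in ICAR contralateral, and the RB difference in CAR against that in ICAR was not distinguishable from 0 (0.09, limma adjusted p = 0.9995, exact permutation p = 0.8286). With the slide as a block the CNN1 values turned to -1.48 in ICAR ipsilateral (limma adjusted p = 0.2504) and -0.71 in ICAR contralateral (limma adjusted p = 0.9998). Each had an unadjusted p under 0.05, as had 1567 of 12847 and 353 of 12861 probes in that order. Both values rest on the cows of both groups that shared a slide, RB cow 1 with non-RB cow 2 and RB cow 4 with non-RB cow 3.

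In ICAR of the ipsilateral horn, DES lay farthest from 0. Its signals were -1.93, -1.60, -1.53 and -0.98 in RB cows and -2.18, -0.19, -0.02 and -1.03 in non-RB cows. Non-RB cows thus held both the lowest and the highest values. The difference was -0.65 on the log2 scale (95% interval -1.69 to 0.38, limma adjusted p = 0.863, exact permutation p = 0.286). ACTC1 moved the same way there, by -1.45 (limma p = 0.0428, adjusted p = 0.863, exact permutation p = 0.114). CALD1 differed by 0.40 (95% interval -0.67 to 1.48) and TPM1 by 0.28 (95% interval -0.61 to 1.17) in this compartment, both with an adjusted p above that of DES.

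In the contralateral horn the differences were smaller in CAR and all above 0 in ICAR. The 7 genes other than MYL9 differed by -0.17 to 0.09 in CAR contralateral, and the smallest exact permutation p was 0.629. In ICAR contralateral, the 7 genes differed by 0.06 to 0.45, with CNN1 (0.45), DES (0.40) and ACTG2 (0.33) at the top and a smallest exact permutation p of 0.400. With the slide as a block CNN1 turned to -0.71 in ICAR contralateral, so its direction there changed with that term, on the pairs of cows named above. In that compartment non-RB replicate 1, of slide 1, had the lowest DES (-2.93), ACTG2 (-0.48) and TPM1 (-3.27) of the group.

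**Figure D5:**
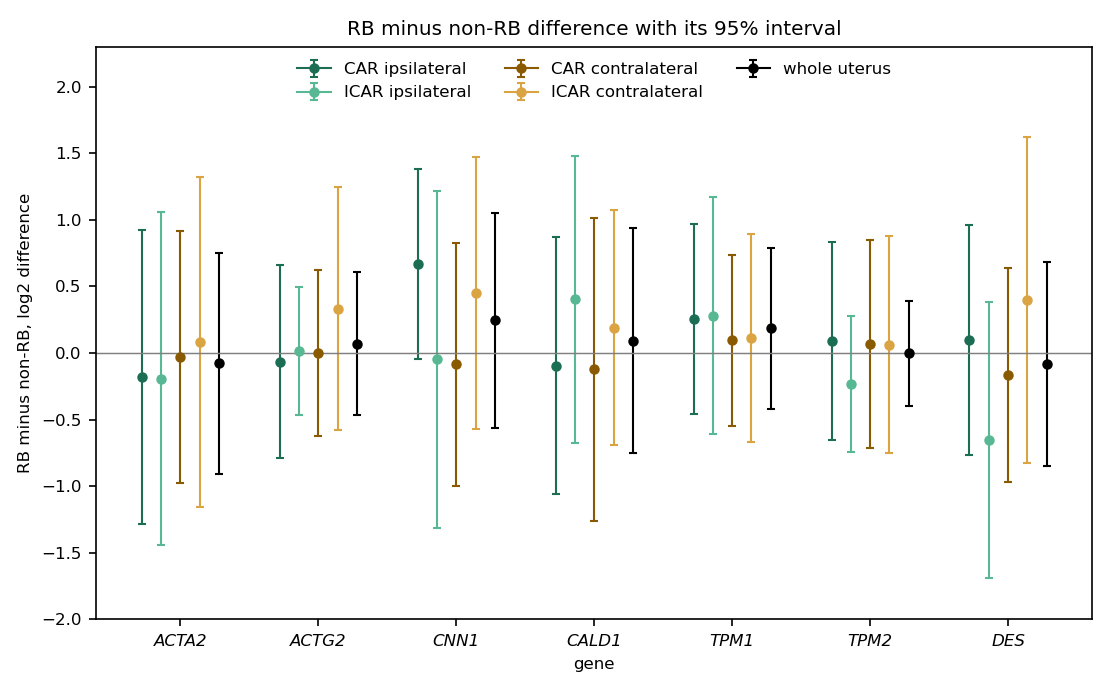
RB minus non-RB log2 difference (vertical axis) of the 7 contractile genes (horizontal axis) in the 4 compartments and over the whole uterus, each with its 95% interval from limma, 4 cows against 4. All 35 intervals include 0, and the farthest estimates are CNN1 in CAR ipsilateral (0.67) and DES in ICAR ipsilateral (-0.65).

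Over the whole uterus, with the 4 arrays of each cow averaged, the RB minus non-RB differences of the 7 genes ran from -0.08 for DES to 0.25 for CNN1. With the slide as a block CNN1 turned to -0.57, outside its interval, and without slide 1 the differences ran from -0.19 for ACTA2 to 0.30 for CNN1. None passed the adjusted test by limma, as was the case for 0.0% of the 12919 probes, and none had an unadjusted p under 0.05 against 2.21% of all probes. The median was 0.07 for the contractile genes and 0.01 for all probes. The narrowest interval was that of the TPM2 probe, whose strand is in doubt, with a difference of 0.00 (95% interval -0.40 to 0.39, a RB to non-RB ratio of 0.998, between 0.759 and 1.31) and of 0.13 without slide 1 (95% interval -0.21 to 0.47), followed by ACTG2 at 0.07 (95% interval -0.46 to 0.61). ACTA2 differed by -0.08 (95% interval -0.91 to 0.75), CALD1 by 0.09 (95% interval -0.75 to 0.94) and TPM1 by 0.19 (95% interval -0.42 to 0.79). The smallest exact permutation p of the 7 genes was 0.514. In the other lists, 0 probes passed the adjusted test. The median difference was -0.42 for the epithelial, 0.10 for the stromal and 0.16 for the pericyte and vessel wall probes. It was 0.20 for the contraction regulators, -0.002 for the thin filament partners and 0.32 for the 2 transcription factors. For the striated muscle probes it was 0.08, with the highest at 1.22 and 1 of 10 at an unadjusted p under 0.05. The endothelial and leukocyte medians were 0.12 and -0.05.

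The horn ipsilateral to the corpus luteum was compared with the contralateral horn in the same way. None of the 7 genes passed (0.0% of 12919 probes), and none had an unadjusted p under 0.05, against 1.36% of all probes. ACTA2 differed by 0.20 (95% interval -0.33 to 0.74) and TPM1 by -0.17 (95% interval -0.50 to 0.16), and the other 5 genes lay between -0.04 and 0.06. Without slide 1 the 7 differences lay between -0.21 for TPM1 and 0.22 for CALD1, and none passed. The RB difference also did not pass a test between horns, where the farthest value was that of DES (-0.40, limma adjusted p = 0.799, exact permutation p = 0.0857), nor between CAR and ICAR, where it was that of CALD1 (-0.41, limma adjusted p = 0.9995, exact permutation p = 0.0571). Without slide 1 these values were -0.28 for DES and -0.28 for CALD1, and the farthest between horns was that of TPM2 (-0.43, limma adjusted p = 0.99999). The CAR minus ICAR difference of CALD1 was -0.10 in RB cows and 0.30 in non-RB cows.

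The genes whose signal followed the contractile genes most closely were ranked by their correlation with the mean of the z-scores of the 8 probes over the 32 arrays, among 4018 named probes well above background on all arrays. The 8 highest were PLCD4, a phospholipase C (0.84), LOX, the enzyme that cross-links collagen and elastin (0.83), LRFN3 (0.81), a probe described as SARM1 whose locus number belongs to SLC46A1 (0.81), ANXA6, a calcium-binding annexin (0.80), SGCE, the epsilon sarcoglycan of the dystrophin-linked membrane complex (0.80), OLFML1 (0.79) and RTN2, a reticulon (0.77). With the mean of each of the 8 groups taken off first, 7 of these 8 probes were again among the highest 8, and PI16 (0.78) took the place of RTN2. With MYL9 left out of the mean, 4 of the 8 were shared, namely LOX (0.86), LRFN3 (0.81), the SLC46A1 probe (0.81) and PLCD4 (0.79). Without slide 1, 6 of the 8 were shared, and THY1 (0.77) and C1S (0.75) came in for ANXA6 and the SLC46A1 probe. These are correlations over arrays that share cows and slides.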

How the data were processed

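Processing covered the scanner output of the 32 single-colour arrays. The authors deposited spot intensity from Agilent Feature Extraction 9.5, with the background subtracted and no scaling between arrays, and a table of log2 values that equals the log2 of this intensity over the 75th percentile of its array apart from a constant of each array. The group and number of each array came from the labels. The contractile genes and the other gene lists were chosen with earlier results of these data known. From each other list the 3 genes with the largest CAR minus ICAR difference are named, called or not, except 1 gene that is not reported here.

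Control spots were dropped, flagged outlier spots were treated as missing, and each log2 intensity was scaled by the 75th percentile of its array (1165 to 4857 intensity units, with 74.3% to 85.8% of probes well above background). A probe was tested where it was well above background on at least 2 of 8 or 8 of 32 arrays and had at least 3 values per group. Gene names came from the files, and 2514 accessions were found in a RefSeq table. Contrasts were fitted with limma 3.58.1 in R 4.3.3, with Benjamini-Hochberg adjustment over all probes tested. CAR with ICAR, and the horns, were compared on single arrays, so these adjusted p-values take arrays of 1 cow as separate. Permutation tests were exact and two-sided. The arrays lay on 8 slides scanned in 4 sessions. Of the slides, 2 held both RB and non-RB cows and 6 only one of them. The fits were tested on simulated data with independent arrays, so the effect of shared cows or slides on the error rate was not covered. The alternatives were no filter, a stricter filter, quantile normalization, normexp background correction (offset 50), the deposited table, the methods' t-test, slide, session or replicate as a block, 1 mean difference per cow for tissue and horn, and each replicate left out. Leaving out slide 1, and MYL9 in the ranking, was added after seeing the data.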

Additional observations from a re-analysis of the deposited data

Results flagged for a closer look

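In none of the 64 sets of 4 arrays (8 probes in 8 groups) did 1 array stand apart from the other three by Dixon's criterion, although chance alone would give about 1 in 20, and no RB difference of a contractile gene passed a test between tissues or horns.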

How the results depend on the processing

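The count of contractile genes that passed the adjusted test stayed at 0 in 158 of 159 recomputed comparisons, under no filter, the stricter filter, quantile normalization, normexp, the deposited table, the methods' t-test, slide or session as a block, each replicate left out (0 to 0 in each comparison) and slide 1 left out. The exception was CAR against ICAR with a replicate block, where 1 gene passed, DES (0.64 on the log2 scale, limma adjusted p = 0.0252), beside 1086 of all probes against 174 without the block. Fitted on 1 mean difference per cow, 0 of 12919 probes passed and DES had an adjusted p of 0.102. Arrays of the same number within a group correlated above 0.1 in 21 of 24 pairs for RB and 20 of 24 for non-RB cows. Some pairs fell short, so the numbers do not meet the limit for pairing by themselves. Same-number pairs averaged 0.424 for RB and 0.399 for non-RB, and the 72 pairs per group with different numbers -0.142 and -0.128. Where a group mean is taken off, averages below 0 for different numbers follow from the same-number ones and add no evidence for pairing. Arrays of the same number also shared slides, as those of RB cow 2 all lay on slide 2, so cow and slide cannot be told apart here. The lowest same-number correlation was -0.407 for RB and -0.0993 for non-RB. Between RB and non-RB cows of the same number, 11 of 16 pairs correlated above 0.1. The replicate block left the count of contractile genes at 0 in each RB against non-RB comparison and between the horns.

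With single cows left out, the CAR minus ICAR difference of DES ranged from 0.50 to 0.74 and its smallest adjusted p was 0.0669, while the probes called between CAR and ICAR ranged from 0 to 908, with 0 when any of 6 of the 8 cows was left out. Slide 1 left out gave 0 as well. Of 1127 recomputed differences of single genes, 157 had another sign than the value reported, none of which had passed the test. With the slide as a block, the RB difference of CNN1 went to -1.48 in ICAR ipsilateral, -0.71 in ICAR contralateral and -0.57 over the whole uterus, and that of CALD1 to -0.69 in ICAR ipsilateral, outside their reported intervals. The cause was not tested, and few slides held both groups. In CAR ipsilateral RB and non-RB arrays shared no slide, so the slide could enter only as a random block and does not check that compartment. The dim signal limits MYL9.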
